A study of Homo sapiens with 2 samples.

Results

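The ERBB family members described here are 10 genes of 24462 gene symbols counted in A549 cells, a cell line derived from a human lung adenocarcinoma. They were chosen by symbol, and each stood on a single row of the count tables. They are the receptor genes EGFR, ERBB2 and ERBB3, the receptor inhibitor gene ERRFI1, the ligand genes AREG, EREG, TGFA, HBEGF and NRG4, and ADAM17, which encodes a protease that frees ligands from the cell surface. The study silenced ADGRF4, an adhesion G protein-coupled receptor, and asked how gene expression differs. It holds 1 library from cells transfected with ADGRF4 siRNAs and 1 library from cells transfected with control siRNAs, both grown in DMEM with fetal bovine serum, antibiotics and an antimycoplasma agent. The number of siRNAs, the time after transfection and any repeat culture are not stated in the labels. Neither treatment has a second library, so no p-value is given, and each interval below is an exact 95% interval that covers counting error only.

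The receptors of this family are tyrosine kinases that act in pairs. EGFR binds AREG, EREG, TGFA and HBEGF, ERBB2 has no known soluble ligand and serves as a partner, and ERBB3 has a weak kinase and signals through its partners after neuregulin binding. NRG4 is a neuregulin that binds ERBB4. Most of the ligands are made as membrane proteins and are cut loose by ADAM17, and ERRFI1 (also called MIG6) binds the kinase domain of EGFR and blocks it. In lung epithelium these receptors drive growth and repair.

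The 5 ligand genes share a coding stretch that the choice of members did not use, the EGF-like domain that contacts the receptor. It is shown because it is what makes these otherwise unlike precursors a family. NRG4 departs from the others in it, and no link between this and its RNA level was tested. The DNA below was read from GENCODE 29 transcripts (GRCh38), 5′ to 3′ on the coding strand, and the capitals mark the 6 cysteine codons (TGC or TGT).
AREG: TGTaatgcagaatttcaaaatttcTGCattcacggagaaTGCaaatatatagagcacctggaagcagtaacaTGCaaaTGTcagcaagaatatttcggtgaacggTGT
EREG: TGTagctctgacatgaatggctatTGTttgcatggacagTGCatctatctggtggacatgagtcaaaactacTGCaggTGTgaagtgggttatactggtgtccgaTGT
TGFA: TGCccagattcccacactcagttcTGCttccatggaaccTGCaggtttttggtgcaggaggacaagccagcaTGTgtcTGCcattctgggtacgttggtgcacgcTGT
HBEGF: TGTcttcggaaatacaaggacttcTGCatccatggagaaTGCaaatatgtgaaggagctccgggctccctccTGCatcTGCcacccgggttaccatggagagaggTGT
NRG4: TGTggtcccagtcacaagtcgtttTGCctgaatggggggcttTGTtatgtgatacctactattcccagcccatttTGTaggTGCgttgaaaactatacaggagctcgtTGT

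In AREG, EREG, TGFA and HBEGF, the codons between successive cysteine codons numbered 7, 4, 10, 1 and 8, which gives a stretch of 108 bases. NRG4 had 5 codons in the second gap instead of 4, and 111 bases. Among the 4 stretches of equal length, AREG and HBEGF shared the most bases, 64 of 108 (59.3%), and EREG and TGFA the fewest, 50 of 108 (46.3%). AREG and EREG are neighbours on chromosome 4, TGFA lies on chromosome 2, HBEGF on chromosome 5 and NRG4 on chromosome 15.

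Each library was read from the 3' ends of its transcripts, and the ADGRF4 siRNA library held 9825320 counts and the control siRNA library 10396047. A difference is given as a fold, the ratio of CPM (a gene's counts scaled to a common library size) after TMM (trimmed mean of M values) scaling, or as the log2 ratio of the scaled CPM with 1 CPM added to each side. Symbols that averaged 30 counts or more over the libraries were compared, 11771 in all, and all 10 members were among them. ADGRF4 itself had 1 count in the ADGRF4 siRNA library (exact Poisson interval 0.0253 to 5.57) and 3 in the control library (0.619 to 8.77), so its loss was not detectable at this depth and the silenced gene does not check the labels. Of 11 A549 and lung epithelial markers all were read, KRT18 and AKR1C2 among the highest, with 153990 summed counts in the ADGRF4 siRNA library and 197772 in the control library. Of these markers 7 were lower past 1.5-fold (63.6%, against 22.3% of all symbols) and 3 higher, with AKR1B10 4.86-fold and CDH1 4.34-fold lower and KRT7 2.66-fold higher; the part of this shift in the results below was not tested. Of 10 leukocyte, endothelial and fibroblast markers, CD3E, VWF and PDGFRB were among those at 0 in both libraries, and the list summed to 81 counts in the ADGRF4 siRNA library and 102 in the control library. Most of these came from COL1A1, with 45 counts after ADGRF4 siRNA and 50 after control siRNA, and CD14, with 30 after ADGRF4 siRNA and 45 after control siRNA. A whole-culture library cannot tell less RNA per cell from fewer cells that make it.

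After ADGRF4 siRNA, NRG4 and ERRFI1 were lower than in the control library and TGFA was higher. NRG4 was 3.71-fold lower, ERRFI1 2.11-fold lower and TGFA 1.82-fold higher. NRG4 reached the average count needed for comparison only through its control count. EGFR and ERBB2 were each 1.43-fold lower, and the other 5 members lay closer to the control. By the limit of 1.5-fold on the log2 ratio, 1 of the 10 members was higher, against 21.1% of all symbols compared, and 2 of the 10 were lower, against 22.3%. At 2-fold, NRG4 and ERRFI1 were lower and no member was higher, where 10.4% of all symbols were lower and 7.84% higher. The share past 1.5-fold on the lower side was near that of all symbols, and the 2-fold count rests on 2 genes, so these counts are read as no result about the family. The median log2 ratio of the members was -0.26, against -0.02 for all symbols compared, and 8 of the 10 lay below 0, against 51.0% of all symbols. Scaling by total counts alone shifts the median symbol to -0.16, and under it 4 members were lower and 1 higher, since EGFR (-0.66) and ERBB2 (-0.65) also passed the limit. Under that scaling 3265 of all 11771 symbols compared were lower and 1898 higher, against 2624 and 2483 with TMM. The count of 4 is therefore read as no result about the family either.

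**Figure D1:**
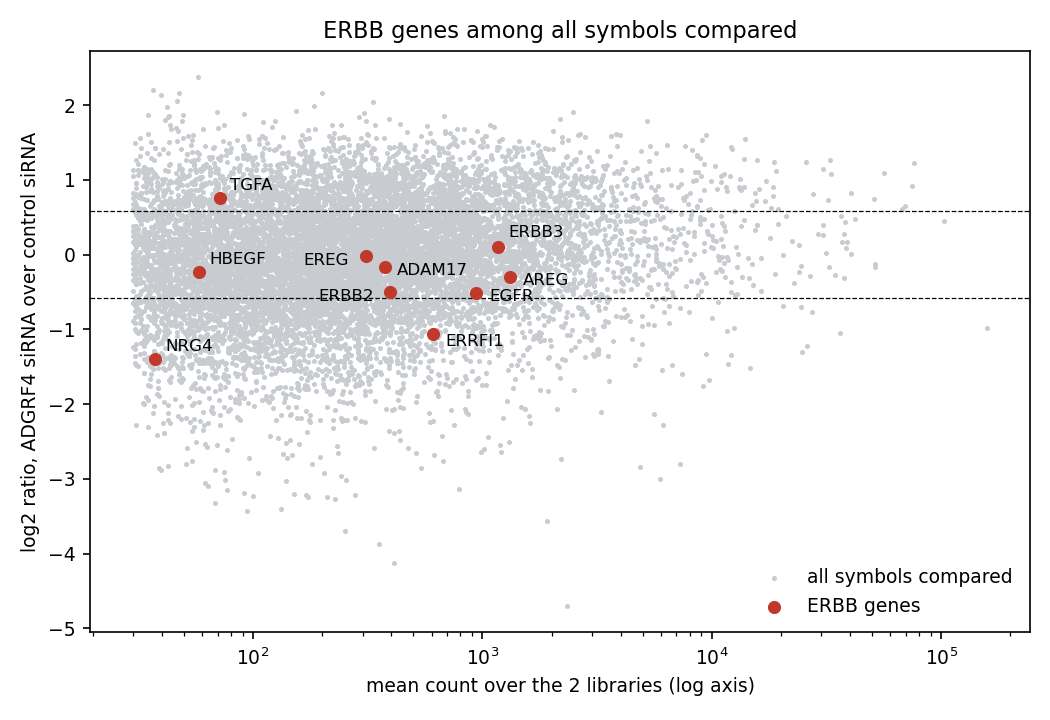
Each grey point is a symbol that averaged 30 counts or more, by its mean count (log axis) and its log2 ratio of ADGRF4 siRNA over control siRNA, and the 10 red points are the ERBB genes. The dashed lines stand at 1.5-fold in either direction, and NRG4, ERRFI1 and TGFA lie outside them within the spread of the grey points.

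Among the receptors, EGFR had 704 counts (75.4 scaled CPM) in the ADGRF4 siRNA library and 1179 (107.7 scaled CPM) in the control library. It was 1.43-fold lower (1.30 to 1.57), and the counting intervals of its level in the 2 libraries did not overlap. ERBB2 had 294 counts (31.5 scaled CPM) in the ADGRF4 siRNA library and 493 (45.04 scaled CPM) in the control library. It too was 1.43-fold lower (1.23 to 1.66). ERBB3 had 1118 counts (119.8 scaled CPM) after ADGRF4 siRNA and 1220 (111.5 scaled CPM) after control siRNA, a fold of 1.07 (0.990 to 1.17) whose interval includes no difference.

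The balance between the receptors can be read within a library, where no scaling enters but no correction for base composition is made either. ERBB3 gave 52.8% of the summed counts of the 3 receptor genes in the ADGRF4 siRNA library (Clopper-Pearson interval 50.7% to 55.0%) and 42.2% in the control library (40.4% to 44.0%). EGFR gave 33.3% (31.3% to 35.3%) after ADGRF4 siRNA and 40.8% (39.0% to 42.6%) after control siRNA, and ERBB2 gave 13.9% (12.4% to 15.4%) after ADGRF4 siRNA and 17.0% (15.7% to 18.5%) after control siRNA. There were thus 1.59 ERBB3 counts for each EGFR count in the ADGRF4 siRNA library and 1.03 in the control library, a ratio of 1.53 between the libraries (1.35 to 1.74). EGFR and ERBB2 stood in a like proportion, with 2.39 EGFR counts per ERBB2 count in each library and a ratio of 1.00 (0.840 to 1.19).

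ERRFI1, the inhibitor, had 350 counts (37.5 scaled CPM) in the ADGRF4 siRNA library and 867 (79.2 scaled CPM) in the control library. It was 2.11-fold lower (1.86 to 2.40), at percentile 9.25 of the log2 ratios of all symbols compared. Set against the receptor it blocks, there were 0.497 ERRFI1 counts per EGFR count after ADGRF4 siRNA and 0.735 after control siRNA, a ratio of 0.676 (0.577 to 0.792). The inhibitor's gene therefore stood further below its control level than the receptor's gene did, by more than counting error.

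AREG, which encodes amphiregulin, was the ligand gene with the most counts in each library. It had 1082 counts (115.9 scaled CPM) in the ADGRF4 siRNA library and 1558 (142.3 scaled CPM) in the control library, and was 1.23-fold lower (1.14 to 1.33). AREG has a near-identical copy in the hg19 assembly named in the submitters' processing notes, and how reads that map to both were counted is not stated there, so its level is uncertain. The copy had no counts under its own symbol in either library. EREG, the gene of epiregulin, had 284 counts (30.4 scaled CPM) after ADGRF4 siRNA and 338 (30.9 scaled CPM) after control siRNA, a fold of 0.986 (0.839 to 1.16).

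The 3 remaining ligand genes had fewer than 100 counts in each library. TGFA, which encodes transforming growth factor alpha, had 87 counts (9.32 scaled CPM) in the ADGRF4 siRNA library and 56 (5.12 scaled CPM) in the control library. It was 1.82-fold higher (1.29 to 2.60), the only member past 1.5-fold on that side. HBEGF, the gene of heparin-binding EGF-like growth factor, had 48 counts (5.14 scaled CPM) after ADGRF4 siRNA and 68 (6.21 scaled CPM) after control siRNA, a fold of 0.828 (0.560 to 1.22). NRG4 had 14 counts (1.5 scaled CPM) in the ADGRF4 siRNA library and 61 (5.57 scaled CPM) in the control library. It was 3.71-fold lower (2.05 to 7.19), at percentile 4.88 of the log2 ratios of all symbols compared. With a mean of 37.5 counts, NRG4 passed the limit for comparison only through the control library. Its count after ADGRF4 siRNA lay under that limit, so its place among the compared symbols depends on its control count.

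AREG gave 71.4% of the counts of the 5 ligand genes in the ADGRF4 siRNA library (69.1% to 73.7%) and 74.9% in the control library (72.9% to 76.7%). TGFA gave 5.74% (4.62% to 7.04%) after ADGRF4 siRNA and 2.69% (2.04% to 3.48%) after control siRNA, and these intervals did not overlap. NRG4 gave 0.924% (0.506% to 1.55%) after ADGRF4 siRNA and 2.93% (2.25% to 3.75%) after control siRNA, again without overlap. EREG gave 18.7% (16.8% to 20.8%) after ADGRF4 siRNA and 16.2% (14.7% to 17.9%) after control siRNA, and HBEGF gave 3.17% (2.35% to 4.18%) after ADGRF4 siRNA and 3.27% (2.55% to 4.12%) after control siRNA. Ligand counts as a whole were 41.7% (40.1% to 43.3%) of ligand and receptor counts together after ADGRF4 siRNA and 41.8% (40.5% to 43.2%) after control siRNA. These shares too carry no correction for base composition.

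**Figure D2:**
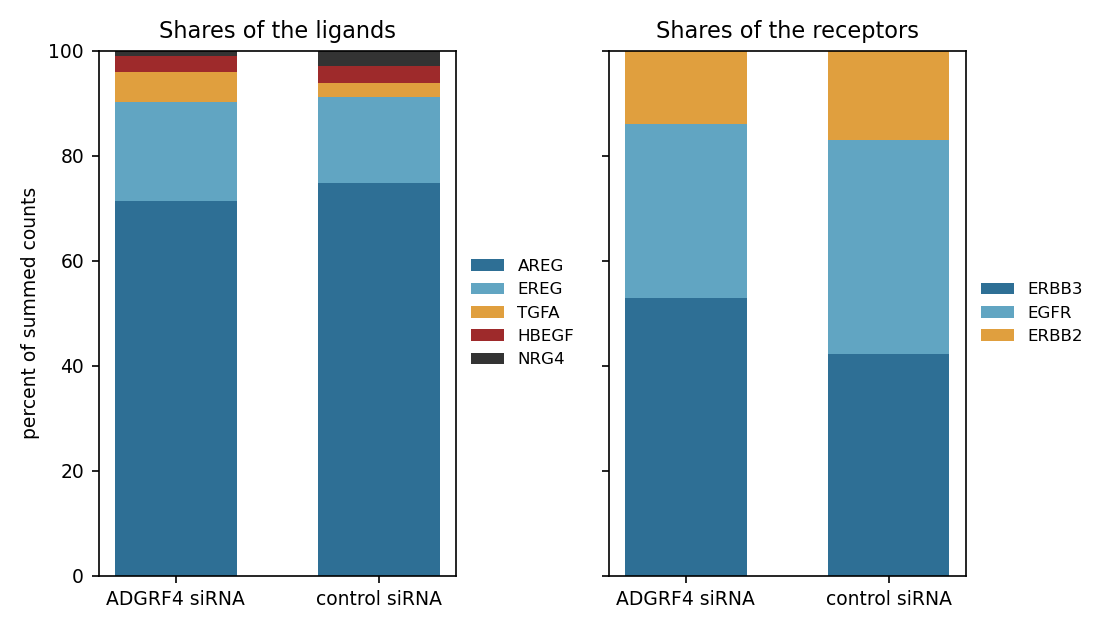
The stacked bars give each gene's percent of the summed counts of the 5 ligand genes (left) and of the 3 receptor genes (right), in the ADGRF4 siRNA library and the control siRNA library. ERBB3 takes 52.8% of the receptor counts after ADGRF4 siRNA and 42.2% after control siRNA, and AREG takes 71.4% of the ligand counts after ADGRF4 siRNA and 74.9% after control siRNA. The shares carry no correction for base composition.

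ADAM17 had 323 counts (34.6 scaled CPM) in the ADGRF4 siRNA library and 426 (38.9 scaled CPM) in the control library. Its fold of 0.889 (0.767 to 1.03) includes no difference.

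Because each transcript is read from its 3' end, counts of different genes can be ordered without division by length, though priming and mapping differ between genes. In the ADGRF4 siRNA library the order was ERBB3, AREG, EGFR, ERRFI1, ADAM17, ERBB2, EREG, TGFA, HBEGF and NRG4. There, ERBB3 and AREG did not differ beyond counting error, nor did any step from ERRFI1 through ADAM17 and ERBB2 to EREG. In the control library the order was AREG, ERBB3, EGFR, ERRFI1, ERBB2, ADAM17, EREG, HBEGF, NRG4 and TGFA. There, ERBB3 and EGFR did not differ beyond counting error, nor did HBEGF and NRG4 or NRG4 and TGFA. ERBB3 therefore stood above EGFR by more than counting error after ADGRF4 siRNA and not after control siRNA. TGFA stood above HBEGF and NRG4 by more than counting error after ADGRF4 siRNA, and below both, within counting error, after control siRNA. Neither order carries a correction for base composition.

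**Figure D3:**
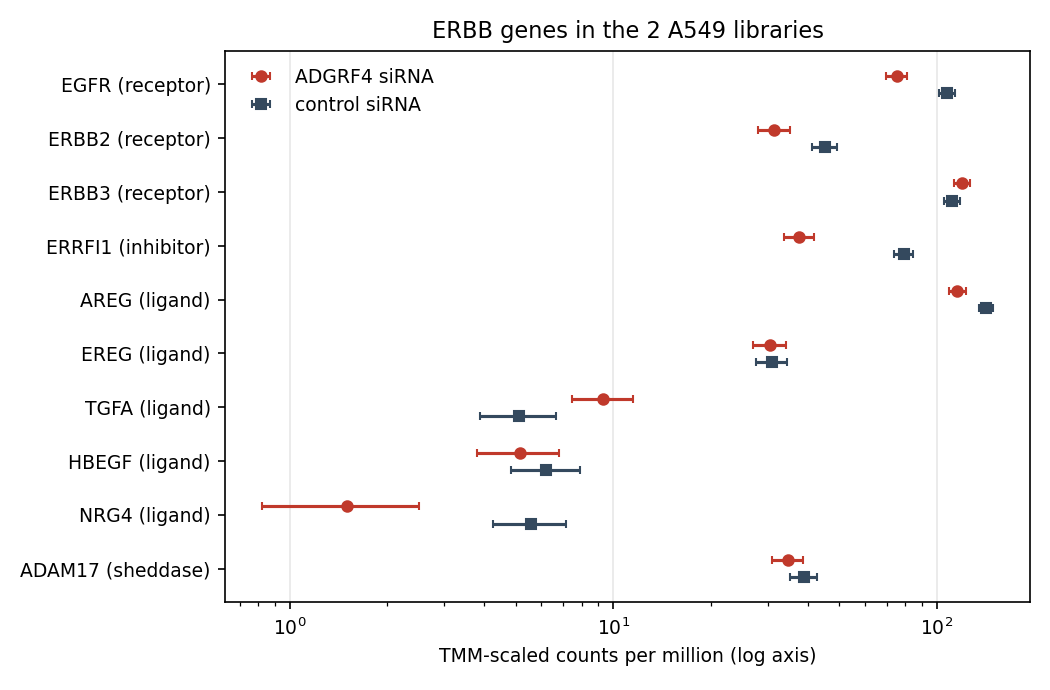
The points give the TMM-scaled CPM (log axis) of each ERBB gene in the ADGRF4 siRNA library (red circles) and the control siRNA library (dark squares), with exact Poisson 95% intervals for counting error. The intervals are apart for EGFR, ERBB2, ERRFI1, AREG, TGFA and NRG4, and overlap for ERBB3, EREG, HBEGF and ADAM17, so 6 of 10 are apart, against 62.2% of all symbols compared.

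The ratio of a symbol moved with the base composition of its 3' end in these libraries. In the 1152 symbols with the lowest GC content in the last 300 bases of the transcript (median 26.7%), the median log2 ratio was -0.36, and in the 1152 with the highest (median 61%) it was 0.78. Of the members, 7 lay under the median GC content of the compared symbols. They ran from 25% GC in EREG to 46.0% in ERBB2, with a median of 30.2%, against 40.3% for all symbols with a value. Among the 7271 symbols within the members' GC range the median log2 ratio was -0.22, close to the -0.26 of the members. After each ratio was centred on the median of symbols with like GC content, the members' median was -0.07, with 2 members lower and 1 higher past 1.5-fold, where 19.03% of symbols were lower and 14.8% higher.

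Centring left NRG4 lower (log2 ratio -1.19) and ERRFI1 lower (-0.70, less than 2-fold), and placed TGFA at 1.12, more than 2-fold higher. EGFR stood at -0.15 and ERBB2 at -0.57, so that these receptors, alike without centring, came apart. The value of ERBB2 depended on the transcript taken, and with the 3' end of its longest coding transcript, which ends elsewhere, it was -1.22, more than 2-fold lower. AREG (0.01), ADAM17 (0.18) and EREG (0.34) changed sign, while ERBB3 stood at 0.22 and HBEGF at -0.19. The part of base composition in these differences was not tested further.

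**Figure D4:**
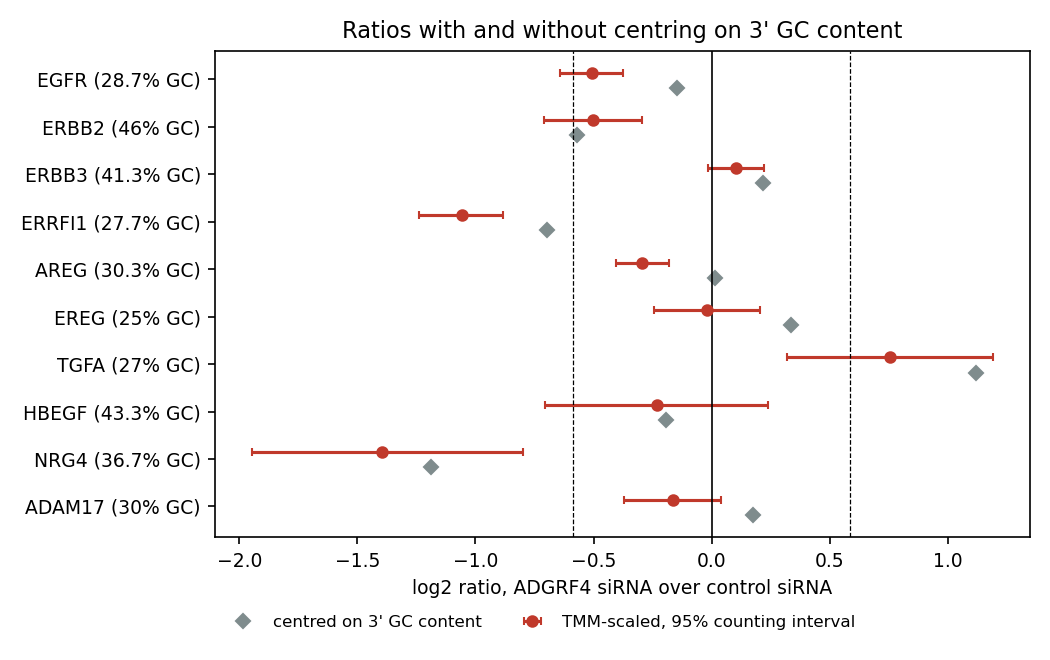
Red circles give the log2 ratio of ADGRF4 siRNA over control siRNA with its 95% counting interval, and grey diamonds the ratio after centring on 3' GC content, for each ERBB gene with the GC content of its last 300 bases. The dashed lines stand at 1.5-fold, and NRG4, ERRFI1 and TGFA lie outside them with and without centring, while EGFR moves to -0.15.

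Some members share annotated exons with a gene on the other strand, and the strand setting of the counting is not known here. ERBB2 overlaps MIEN1 and PGAP3. MIEN1 had 1896 counts after ADGRF4 siRNA and 986 after control siRNA, 2.26-fold higher (2.09 to 2.44), and PGAP3 had 192 after ADGRF4 siRNA and 144 after control siRNA, 1.56-fold higher (1.25 to 1.95), the opposite direction to ERBB2. NRG4 overlaps FBXO22, which had 288 counts after ADGRF4 siRNA and 414 after control siRNA, and ADAM17 overlaps IAH1, which had 208 after ADGRF4 siRNA and 366 after control siRNA. EGFR-AS1 had 2 counts after ADGRF4 siRNA and 0 after control siRNA, with an exact Poisson interval of 0 to 3.69 counts in the control library. A floor set at 3 counts is 0.289 CPM there, without TMM factors. Counting without strand could affect only reads that fall in a stretch shared by such a pair. Whether the shared stretches lie where 3' end reads fall was not examined. ERRFI1 also overlaps a transcript known only by a clone name on the other strand, and ERBB3 one on its own strand. AREG, EREG, TGFA and HBEGF overlap no exon of another gene in GENCODE 29.

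The rest of the family was scarcely read. NRG1, a neuregulin that binds ERBB3, had 44 counts after ADGRF4 siRNA and 58 after control siRNA, a fold of 0.890 (0.587 to 1.34). The ligand genes BTC, EPGN and NRG2 lay under the limit of 30 counts, with 24, 11 and 13 counts after ADGRF4 siRNA and 11, 13 and 26 after control siRNA. ERBB4, the receptor of NRG4, had 1 count after ADGRF4 siRNA and 2 after control siRNA, EGF had 1 in each library, and NRG3 had 0 in each. The floor of 3 counts is 0.305 CPM after ADGRF4 siRNA and 0.289 after control siRNA, without TMM factors. The exact Poisson interval of a 0 count reaches 3.69 counts, above that floor.

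In 5 lists of further ERBB pathway genes, 41 of 52 had enough counts, of which 12 were higher past 1.5-fold and 7 lower in the ADGRF4 siRNA library, with a median log2 ratio of 0.09. These are 29.3% and 17.1% of the genes compared, against 21.1% of all symbols higher and 22.3% lower. Of 9 ligand shedding genes compared, 5 were higher (55.6%, against 21.1% of all symbols) and 1 lower (11.1%, against 22.3%), with a median of 0.62, or 0.53 after centring on 3' GC content. With centring 4 were higher and 1 lower, where 14.8% of symbols were higher and 19.03% lower. ADAM17, with a fold of 0.889, is a member and not in this list. The list is short and was chosen with earlier results known, so its share is read as no result about shedding. ADAM15, a disintegrin metalloprotease, was 2.71-fold higher (2.51 to 2.93), RHBDF1, an iRhom that brings ADAM17 to the surface, 2.09-fold higher (1.84 to 2.39), and NRD1, now NRDC, which enhances shedding of HBEGF, 1.75-fold higher (1.63 to 1.88). ADAM10, the other main sheddase, had 254 counts after ADGRF4 siRNA and 540 after control siRNA and was 1.81-fold lower (1.56 to 2.11). After centring on 3' GC content, ADAM15 stood at 0.59, RHBDF1 at 0.53, NRD1 at 0.84 and ADAM10 at -0.60, so RHBDF1 no longer reached 1.5-fold.

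Of 13 genes of adaptors and effectors at the receptors, 2 were higher (15.4%, against 21.1% of all symbols) and 3 lower (23.1%, against 22.3%), with a median of 0.02. These shares lie near those of all symbols and are no result about the list. SOS1 and SOS2, exchange factors that load RAS with GTP, were 1.83-fold (1.52 to 2.21) and 2.27-fold lower (1.84 to 2.81), and VAV2, another exchange factor, 1.66-fold lower (1.30 to 2.14). PLCG1, a phospholipase, was 2.30-fold higher (1.76 to 3.03). GRB2, the adaptor that carries SOS proteins to the receptor, had 803 counts after ADGRF4 siRNA and 900 after control siRNA, a fold of 1.05 (0.950 to 1.15). With centring on 3' GC content, SOS1 stood at -0.53, under 1.5-fold.

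Of 13 genes of receptor down-regulation and sorting, 3 were higher (23.1%, against 21.1% of all symbols) and 2 lower (15.4%, against 22.3%). The median was -0.31 and turned to 0.05 after centring on 3' GC content. EPN1, an endocytic adaptor, was 2.87-fold higher (2.69 to 3.06) and HGS, which sorts ubiquitinated receptors towards lysosomes, 2.04-fold higher (1.79 to 2.33). Its partner gene STAM2 was 2.47-fold lower (1.84 to 3.37), and RNF41, a ubiquitin ligase for ERBB3, was 1.62-fold higher (1.40 to 1.88). The ubiquitin ligase gene CBL, which marks EGFR for degradation, had 484 counts after ADGRF4 siRNA and 704 after control siRNA, a fold of 0.806 (0.717 to 0.907). Of 5 genes for ERBB2 stability and localisation, 2 were higher and 1 lower, with a median of 0.28; 5 genes are too few to set a share beside the 21.1% and 22.3% of all symbols. STUB1, a ubiquitin ligase for chaperone clients, was 2.71-fold higher (2.51 to 2.94) and CDC37, a kinase co-chaperone, 2.14-fold higher (2.05 to 2.25), while ERBB2IP, which encodes the scaffold ERBIN, was 1.90-fold lower (1.71 to 2.12). The chaperone gene HSP90AB1 had a fold of 1.21 (1.20 to 1.23). With centring on 3' GC content, HGS stood at 0.17, CDC37 at 0.37 and ERBB2IP at -0.56, all under 1.5-fold.

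**Figure D5:**
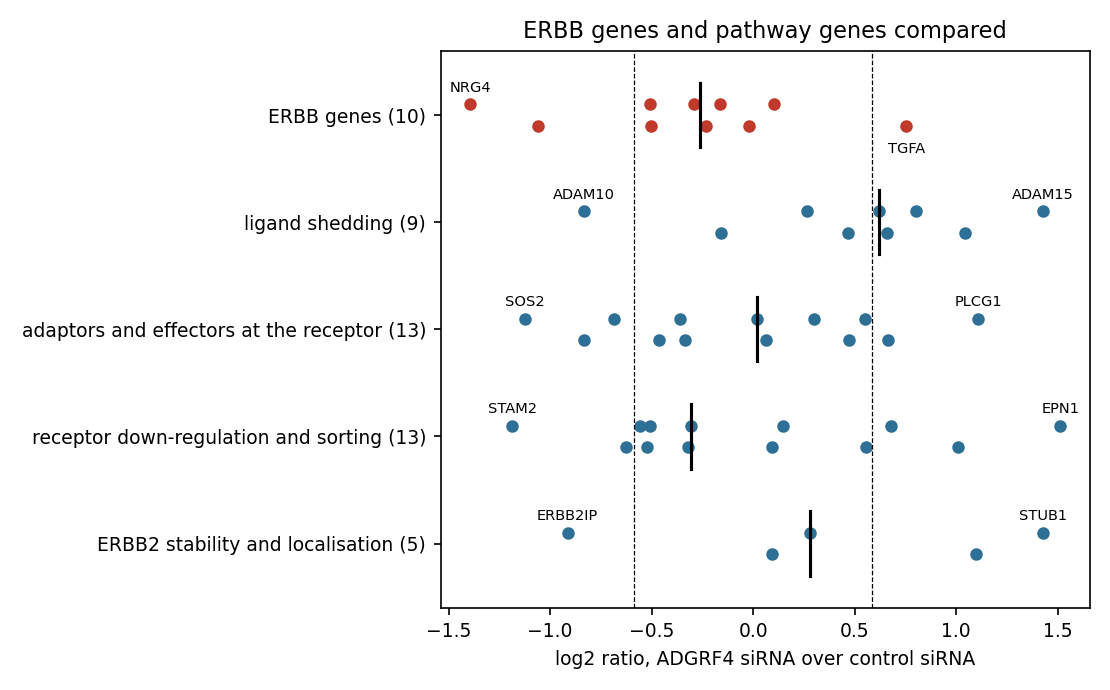
Each point is a gene's log2 ratio of ADGRF4 siRNA over control siRNA, for the 10 ERBB genes (red) and for the compared genes of 4 pathway lists (blue, with their number), with the genes at either end named. Black bars give the medians, dashed lines stand at 1.5-fold, and the medians run from -0.31 in receptor down-regulation and sorting, which turns to 0.05 after centring on 3' GC content, to 0.62 in ligand shedding.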

How the data were processed

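Messenger RNA of A549 cells was read by 3' end sequencing in 2 libraries, 1 per group. Per the labels' protocols, Trizol was used to extract RNA and a Lexogen QuantSeq kit to make the libraries. The deposited values are raw counts, with 1 whole number per symbol and library. Bowtie2, edgeR and hg19 are named in the submitters' processing notes, with no roles. The annotation, the strand setting and the handling of multiply mapped reads are not given.

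Rows that repeat a symbol were summed. Libraries were scaled by TMM in edgeR 4.0.16 (R 4.3.3). The log2 ratio used a pseudocount of 1 CPM, which understates differences of low genes. Folds carry no pseudocount, and their intervals come from Clopper-Pearson limits. Reads carry no molecular identifiers in these files, so intervals and floors (3 counts) cover counting error only. Calls were made by size alone. GC content was taken from the last 300 bases of the APPRIS principal transcript (GENCODE 29, GRCh38), for 97.9% of compared symbols, and centred in 20 bins; the principal transcript was chosen after the longest one was seen to have a different end in ERBB2. Coordinates are not printed, because the counts were made on hg19. The ratio calculation was tested on simulated data.

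The members and lists were chosen with earlier results of these data known. Named were all members, the rest of the family, and from each pathway list up to 4 genes with the largest absolute log2 ratio; GRB2, GRB7, CBL and the genes that overlap members were added after their values were seen. Alternatives were 3 other scalings (DESeq2 1.42.0 size factors among them) and other pseudocounts and count limits. Further ones were GC centring by the principal or the longest transcript, the top row per symbol, and thinning of the control library. The choice between these transcripts was made after the data were seen.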

Additional observations from a re-analysis of the deposited data

How the results depend on the processing

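No paired analysis was possible because each group has 1 library. Over 11 alternatives, NRG4, ERRFI1 and TGFA, the members past 1.5-fold, kept their sign, and 16 of 107 member values moved beyond their counting interval. Some of the 107 could not move. Other count limits leave each ratio as it is, and the top row per symbol is the only row of each member. NRG4 ranged from -1.83 to -0.70 on the log2 scale, ERRFI1 from -1.20 to -0.70 and TGFA from 0.50 to 1.12. AREG, EREG, ERBB3 and ADAM17 changed sign in at least 1 setting. The main counts past 1.5-fold were 2 members lower and 1 higher. Total-count scaling gave 4 members lower, with 556 symbols at least 2-fold higher, against 923 with TMM; at 1.5-fold, it gave 1898 symbols higher and 3265 lower, against 2483 and 2624, and 8 pathway genes higher and 10 lower, against 12 and 7. A pseudocount of 5 CPM gave 0 members higher past 1.5-fold, where 1956 of all 11771 symbols were higher. At 2-fold it gave 528 symbols higher and 699 lower, against 923 and 1219. A limit of 100 counts kept 7 members, 0 higher and 1 lower past 1.5-fold, since TGFA, HBEGF and NRG4 fell under it. Of the 8855 symbols it kept, 1983 were higher and 1788 lower past 1.5-fold, with 811 lower at 2-fold. Centring on 3' GC content of the principal transcript gave a members' median of -0.065 (main -0.26), 410 symbols 2-fold higher and 4 pathway genes lower. By the longest transcript these were -0.067, 422 and 5, with 3 members lower, since ERBB2 stood at -1.22. There, 2199 of 11520 symbols were lower past 1.5-fold. The choice of the principal over the longest transcript was made after the data were seen. The cause of these movements was not tested. NRG4, HBEGF and TGFA rest on 14 to 87 counts a library, and their counting intervals are wide.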

Other observations

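The members' 3' ends were also searched for ATTTA, the core of AU-rich elements that shorten the life of an mRNA, on the transcript strand alone and in the same last 300 bases. It was present in AREG, EREG, TGFA, HBEGF, ERRFI1 and ADAM17, 6 of the 10, and in 44.6% of the 11520 compared symbols searched. Symbols that held it had a median log2 ratio of -0.20, and those that did not had 0.16; such 3' ends are also poor in GC, and these were not separated. EGFR, ERBB2, ERBB3 and NRG4 held no ATTTA in this window.

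AREG and EREG stand in a run of ligand genes on chromosome 4 in the order EPGN, EREG, AREG and BTC. In this run BTC, the gene of betacellulin, had a fold of 2.56 (1.21 to 5.79) after ADGRF4 siRNA, from 24 counts against 11 in the control library, and EPGN had a fold of 0.993 (0.403 to 2.40). EREG kept 0.262 counts per AREG count in the ADGRF4 siRNA library, against 0.217 in the control library, a ratio of 1.21 (1.01 to 1.45). GRB7, which lies beyond MIEN1 next to ERBB2 on chromosome 17 and encodes an adaptor of ERBB2, was 1.47-fold higher (1.33 to 1.64), with a log2 ratio of -0.02 after centring on 3' GC content.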
